A study of Mus musculus with 4 samples.

Results

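The 10 genes described here mark the integrated stress response of mouse liver: Atf4, Atf5, Ddit3, Trib3, Asns, Chac1, Ppp1r15a, Sesn2, Psat1 and Herpud1. Every probe set whose single gene symbol in the platform annotation was one of these names was taken, which gave 18 of 45037 probe sets and 10 of 18193 named genes. The probe sets were found by name, but the genes themselves were chosen with earlier results of these data known. RNA came from whole liver of male mice, with 1 array for each of 4 groups, which cross genotype (wild type or LASS2-/-) with diet (chow or high-fat diet, HFD). Lass2 is the former name of Cers2, a ceramide synthase. Chow held 10% and the high-fat diet 60% of calories from fat, and both diets began at 3 weeks of age. The strain, the age at sampling, the kind of LASS2 allele and the number of mice behind each array were not found in the labels. Without replicates, the spread between animals is unknown.

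In the integrated stress response, kinases that sense amino acid shortage, unfolded protein, double-stranded RNA or haem shortage phosphorylate the translation factor eIF2. Protein synthesis falls in general, while Atf4 mRNA is translated more, so that ATF4 protein can rise without a change in its mRNA. ATF4, a bZIP transcription factor, then turns on genes of amino acid synthesis, transport and tRNA charging, together with further factors and feedback inhibitors. In liver the response is known from amino acid restriction, from mitochondrial stress and from stress of the endoplasmic reticulum, where it runs beside the ATF6 and XBP1 arms that raise chaperones.

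ATF4 pairs with C/EBP family members on a composite element whose core can be written TGATGNAA. In the 250 bases before the annotated starts of the members, this core was found on either strand upstream of Asns, Chac1 and Herpud1. It was present in 3 of 12 member windows, and in 3.45% of all 32851 windows of the same length. The narrower form TGATGCAA, which overlaps it, was in 2 of the 12 and in 0.791% of all. ERSE-II, an element bound by ATF6 and XBP1 in which ATTGG and CCACG lie 1 base apart, was found upstream of Herpud1 alone among the members and in 0.0304% of all windows. The cyclic AMP response element TGACGTCA was found upstream of Ppp1r15a and in 1.55% of all windows. The stretches below come from RefSeq on GRCm38.p6 and run 5′ to 3′ on the strand of the gene, and capitals mark the matches just named. They are shown because they give, letter by letter, the matches to the elements named above. Elements outside these 250 bases were not searched for. A match is a description of the letters and was not tested as a site.
Asns, chr6:7693210-7693262, minus strand: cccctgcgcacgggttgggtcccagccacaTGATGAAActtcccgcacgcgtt
Chac1, chr2:119351019-119351086, plus strand: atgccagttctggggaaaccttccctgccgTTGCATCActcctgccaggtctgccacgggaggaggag
Herpud1, chr8:94386287-94386417, plus strand: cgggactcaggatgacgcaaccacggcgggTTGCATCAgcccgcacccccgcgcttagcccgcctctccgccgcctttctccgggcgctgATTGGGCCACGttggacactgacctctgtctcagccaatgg
Ppp1r15a, chr7:45526269-45526310, minus strand: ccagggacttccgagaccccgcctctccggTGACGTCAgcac
In Chac1 and Herpud1 the composite core reads on the opposite strand, as TTGCATCA, 186 to 193 and 105 to 112 bases before the start. In Asns it lies 16 to 23 bases before the start. CCAAT, on either strand, was found in 7 of the 12 windows, and 33.8% of all windows hold it.

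Values are log2 signals, in which a difference of 1 is a 2-fold change. Each array's own median, 6.17 to 6.28, served as a floor for ratios, since signals under it are poorly measured. A ratio with an array under the floor is a bound. Of the 18 probe sets, 16 reached the median on at least 1 array, and each gene is represented by the brightest of these. The third Atf4 probe set was at most 2.27 on any array, and the second Psat1 probe set between 5.75 and 6.27. A gene was called at least 2-fold apart on a ratio of 2 arrays, without a test. The mean genotype effect over both diets and the mean diet effect over both genotypes were tested with limma in an additive fit over 12493 genes, whose error comes from how far the genotype ratio differs from one diet to the other. Errors after ± are its moderated standard errors, which rest mostly on other genes of like signal.

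The liver label fitted its markers: the hepatocyte gene Alb ranged from 15.02 to 15.27 and Apoa1 from 15.53 to 15.77. The targeted gene, Cers2, was at 12.46 and 12.25 on the wild-type arrays and 12.32 and 12.32 on the LASS2-/- arrays of chow and high-fat diet. Its signal thus did not separate the LASS2-/- arrays from wild type, and where on the transcript its probe set lies was not determined. Genotype names below are those of the labels. Of 10 macrophage markers, 3 rose with LASS2-/- in limma, as did 0.56% of all genes. The summed signal of the 10 was 16288 on wild type chow, 20796 on LASS2-/- chow, 16399 on wild type HFD and 26703 on LASS2-/- HFD. All but Timd4, which was lower in LASS2-/- on chow, were higher in LASS2-/- on both diets. In whole liver, a change in the number of cells of a type and a change in RNA per cell cannot be told apart.

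On chow, 8 of the 10 members had a higher signal in LASS2-/- than in wild type, and on high-fat diet 4 did. Over all genes the shares were 51.2% and 51.5%. With arrays at equal medians, 6 members were higher in LASS2-/- on chow and 4 on high-fat diet. The median log2 ratio of LASS2-/- over wild type was 0.35 for the members on chow, against 0.03 for all genes, and -0.20 on high-fat diet, against 0.00. Ddit3 and Asns were at least 2-fold higher on chow, a call made for 1.16% of all genes, and 0 members were at least 2-fold lower, against 0.424%. On high-fat diet 0 members were at least 2-fold higher, against 1.47% of genes, and 0 were lower, against 0.488%. The last count rests on the floor: with it at the 25th percentile, 1 member, Asns, was 2-fold lower. The mean genotype effect passed limma for 0 of the 10 members at an adjusted p below 0.05, where 0.56% of genes rose and 0.352% fell. At an unadjusted p below 0.05, 1 member, Ddit3, passed, beside 10.4% of all genes.

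**Figure D1:**
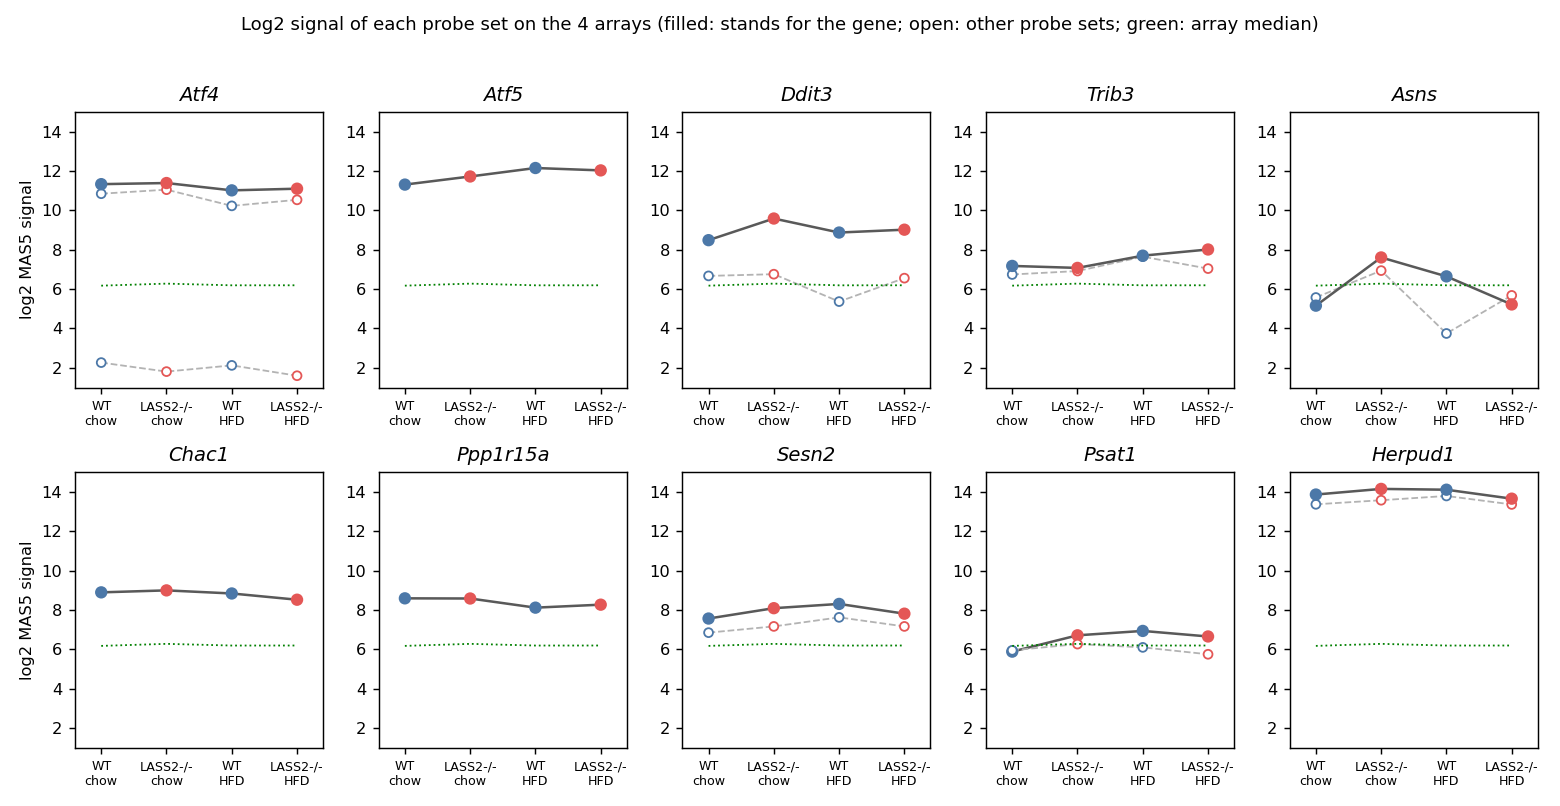
Log2 MAS5 signal of the 18 probe sets of the 10 members on the 4 arrays, wild type in blue and LASS2-/- in red, with 1 array a point and no error bars. Filled points joined by solid lines stand for the gene, open points are its other probe sets, and the green line is each array's median; Ddit3 peaks on LASS2-/- chow, and Atf5, Sesn2 and Psat1 on wild type HFD.

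Atf4, on chr15:80255184-80257545, was lower on both high-fat arrays and, in its brightest probe set, differed little between genotypes. Its log2 signal was 11.33 on wild type chow, 11.39 on LASS2-/- chow, 11.02 on wild type HFD and 11.10 on LASS2-/- HFD. Both high-fat arrays lay below both chow arrays, and LASS2-/- over wild type was 0.06 on chow and 0.08 with high-fat diet. Once arrays had equal medians, the chow ratio was -0.05. The mean diet effect was -0.30 ± 0.11 and did not pass (limma adjusted p = 0.0885). A second Atf4 probe set read 10.85, 11.05, 10.23 and 10.54 on the arrays in the same order. In it LASS2-/- over wild type was 0.21 on chow and 0.31 with high-fat diet. Its mean genotype effect of 0.26 ± 0.12 did not pass when every probe set was tested on its own (limma adjusted p = 0.555). There the mean diet effect was -0.57 ± 0.12, lower in both genotypes, and it passed when every probe set was tested on its own (limma adjusted p = 0.0112). For diet the probe sets thus shared a direction and differed in size.

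Atf5, on chr7:44812256-44816658, encodes a bZIP factor close to ATF4 that is abundant in hepatocytes and is likewise controlled at translation. It was the 1 member that passed for diet, and it rose. Atf5 read 11.31 on wild type chow, 11.72 on LASS2-/- chow, 12.15 on wild type HFD and 12.03 on LASS2-/- HFD. Both high-fat arrays lay above both chow arrays, with a gain of 1.79-fold in wild type and 1.24-fold in LASS2-/-. The mean diet effect was 0.58 ± 0.12 log2, higher in both genotypes (limma adjusted p = 0.00674). The residual standard deviation of Atf5 itself was 0.27, against the moderated 0.12 used in this test. For diet, 6.26% of all genes rose and 5.04% fell, and 0 members fell. The call did not hold in limma without a trend (adjusted p = 0.374), where 0 genes of the whole table passed, and over the other alternatives the adjusted p ran from 0.00134 to 0.0243. LASS2-/- stood 0.41 above wild type on chow, and its ratio with high-fat diet was -0.12.

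Ddit3, on chr10:127290793-127296291, encodes CHOP, a factor that ATF4 induces and that promotes cell death under lasting stress. Ddit3 read 8.49 on wild type chow, 9.59 on LASS2-/- chow, 8.87 on wild type HFD and 9.02 on LASS2-/- HFD. The LASS2-/- chow array stood above the other arrays, 2.14-fold over wild type chow, while the high-fat arrays were 1.11-fold apart. The mean genotype effect was 0.62 ± 0.21 and did not pass (limma adjusted p = 0.253). The dimmer Ddit3 probe set had 6.67, 6.76, 5.37 and 6.56 in the same order, with wild type HFD under the floor, so that LASS2-/- was above wild type by 0.09 on chow and by at least 0.36 with high-fat diet. As deposited, both probe sets were higher in LASS2-/- on both diets, but they placed the larger difference on opposite diets. The chow ratio of the dimmer one was smaller than the gap between the medians of the chow arrays, 6.17 and 6.28, so its sign depends on the scaling. Once arrays had equal medians, the chow ratio of the brighter one was just under 2-fold.

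Among 10111 genes at or above the median on all 4 arrays, those whose centred log2 signals came nearest to those of Ddit3 were Wnt6, Rdh5, Pik3r2, Ten1 and Aph1b. Their root mean square differences from it over the 4 arrays ran from 0.059 for Wnt6 to 0.077 for Aph1b, where Ddit3 itself ranged over 1.10. With 4 arrays such a likeness describes the shape only.

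Ppp1r15a, on chr7:45522917-45526268, encodes GADD34, which recruits a phosphatase to eIF2 and so ends the response. Ppp1r15a read 8.59 on wild type chow, 8.58 on LASS2-/- chow, 8.12 on wild type HFD and 8.27 on LASS2-/- HFD. The chow arrays were nearly equal and both high-fat arrays lay below them. The mean diet effect of -0.39 ± 0.19 did not pass (limma adjusted p = 0.239).

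Trib3, on chr2:152337425-152344060, encodes a pseudokinase induced by ATF4 and CHOP that holds both factors back and binds the kinase AKT. Trib3 read 7.18 on wild type chow, 7.08 on LASS2-/- chow, 7.70 on wild type HFD and 8.01 on LASS2-/- HFD. Both high-fat arrays lay above both chow arrays, as they did in the other probe set, with 6.74, 6.92, 7.65 and 7.04 in the same order. The mean diet effects of 0.73 ± 0.28 (limma adjusted p = 0.114) and, when every probe set was tested on its own, 0.51 ± 0.32 (adjusted p = 0.409) did not pass. On high-fat diet the genotype ratio was 0.31 in one probe set and -0.61 in the other, and on chow it was -0.10 and 0.17, so no direction for genotype can be given.

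Chac1, on chr2:119351242-119354326, encodes an enzyme that breaks down glutathione and is a target of ATF4. Chac1 read 8.89 on wild type chow, 8.99 on LASS2-/- chow, 8.84 on wild type HFD and 8.52 on LASS2-/- HFD. The LASS2-/- HFD array was the lowest, and the other arrays lay between 8.84 and 8.99. The chow genotype ratio was 0.10, or -0.00 with arrays at equal medians, while that of the high-fat arrays was -0.32. Neither mean effect passed, with limma adjusted p = 0.916 for genotype and 0.414 for diet.

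Sesn2, on chr4:132492804-132510456, encodes sestrin 2, a leucine sensor that restrains mTORC1. Sesn2 read 7.56 on wild type chow, 8.09 on LASS2-/- chow, 8.31 on wild type HFD and 7.81 on LASS2-/- HFD. Wild type chow was the lowest and wild type HFD the highest, with the LASS2-/- arrays between them. LASS2-/- was 1.44-fold above wild type on chow and 1.41-fold below it on high-fat diet. The other Sesn2 probe set had 6.85, 7.16, 7.62 and 7.16 in the same order, with genotype ratios of 0.32 and -0.46. Both probe sets therefore showed opposite genotype differences on the 2 diets.

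Asns, on chr6:7675165-7693209, encodes asparagine synthetase, and Psat1, on chr19:15905123-15925059, encodes the transaminase of serine synthesis. Both were dim. Asns read 5.16 on wild type chow, 7.61 on LASS2-/- chow, 6.65 on wild type HFD and 5.22 on LASS2-/- HFD, so that 2 arrays were under the floor. With the floor it was at least 2.70-fold higher in LASS2-/- on chow and at least 1.37-fold lower on high-fat diet. Within LASS2-/- it was at least 2.67-fold lower on high-fat diet than on chow. That was the only member called 2-fold lower there, a call made for 1.89% of genes, and 0 members were 2-fold higher, against 3.11%. The other Asns probe set had 5.57, 6.94, 3.75 and 5.68 in the same order and gives no genotype direction on high-fat diet, where both arrays were under the floor. On chow its LASS2-/- array was higher by at least 0.77 log2. Only LASS2-/- chow was above the floor in both Asns probe sets.

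Psat1 read 5.88 on wild type chow, 6.71 on LASS2-/- chow, 6.94 on wild type HFD and 6.65 on LASS2-/- HFD, with wild type chow under the floor. It was at least 1.45-fold higher in LASS2-/- on chow and 1.22-fold lower on high-fat diet. The dimmer Psat1 probe set never reached its array's median and gives no ratio. In wild type, at least 1.69-fold more signal was seen on high-fat diet than on chow.

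Herpud1, on chr8:94386429-94395371, encodes a membrane protein of the endoplasmic reticulum that helps to send misfolded proteins to the proteasome. Herpud1 read 13.87 on wild type chow, 14.15 on LASS2-/- chow, 14.11 on wild type HFD and 13.66 on LASS2-/- HFD. LASS2-/- was 1.22-fold above wild type on chow and 1.37-fold below it on high-fat diet. The other Herpud1 probe set had 13.37, 13.58, 13.79 and 13.36 in the same order, with genotype ratios of 0.21 and -0.43. At this brightness, above 98.1% of all probe sets on each array, the opposite differences were seen in both probe sets. In the additive fit they cancelled, and the mean genotype effect was -0.08 ± 0.13 (limma adjusted p = 0.902).

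**Figure D2:**
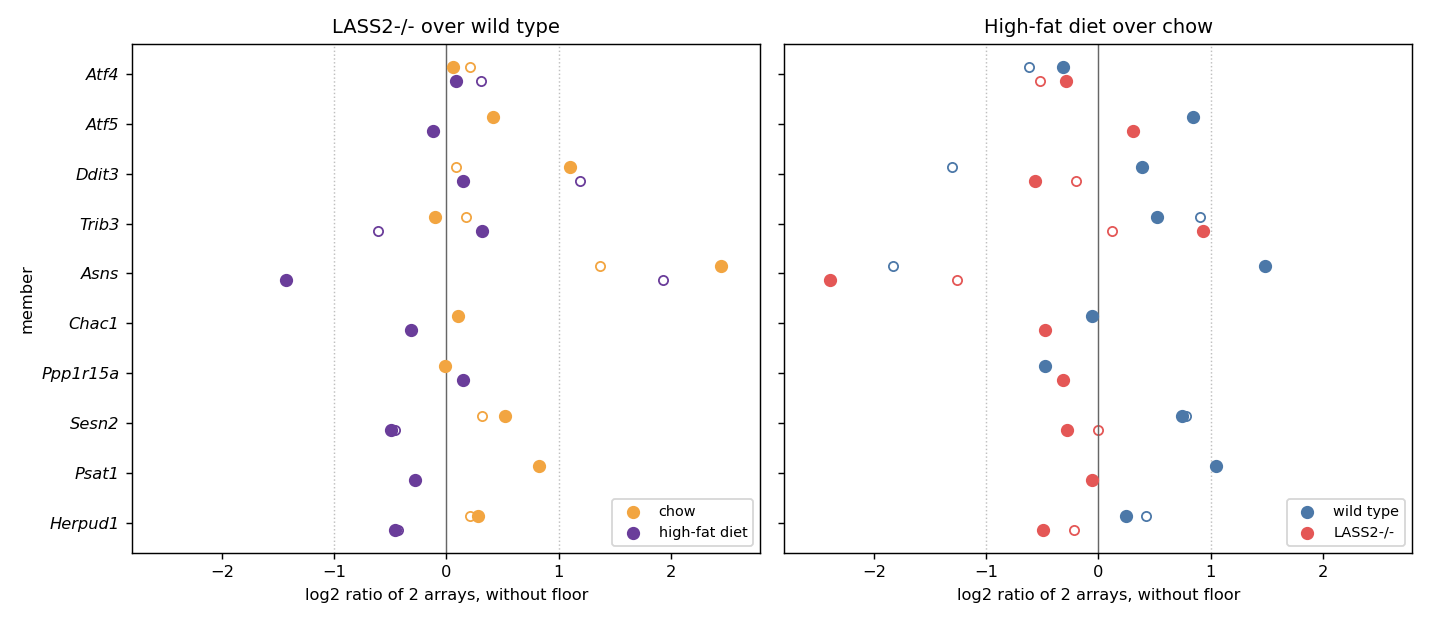
Log2 ratios of 2 arrays for the 16 probe sets that reached the array median on at least 1 array, without a floor, so that points of Asns, Psat1 and the dimmer Ddit3 probe set include signals under it, LASS2-/- over wild type on the left (chow in orange, high-fat diet in purple) and high-fat diet over chow on the right (wild type in blue, LASS2-/- in red). Filled points stand for the gene, open points are its other probe sets, dotted lines mark 2-fold, and in Sesn2 and Herpud1 the points of both probe sets lie on opposite sides of 0 for the 2 diets.

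Across the members, the genotype ratio was greater on chow than on high-fat diet in 7 of 10, namely Atf5, Ddit3, Asns, Chac1, Sesn2, Psat1 and Herpud1, and in 49.6% of all genes. In 6 of them it was above 0 on chow and below 0 on high-fat diet, which held for 22.1% of all genes. Among the 8 members at or above the median on all 4 arrays it held for 4, against 21.2% of such genes. With arrays at equal medians 5 of the 10 members had this pattern, since Chac1 no longer did. The median difference of the ratios, chow minus high-fat diet, was 0.64 log2 for the members and -0.00 for all genes. With 1 array a group this difference is the residual of the fit and was not tested. A greater genotype ratio on chow was not confined to the members. It was seen in 7 of 8 hepatocyte, 6 of 6 stellate and 6 of 6 endothelial markers, 17 of 22 chaperone genes and 12 of 16 other targets. Their median differences were 0.20, 0.45, 0.16, 0.13 and 0.19, in that order. It was seen in 4 of 8 amino acid transporters, 6 of 15 eIF2 kinases and regulators and 2 of 10 macrophage markers. The same 4 values of each gene give the diet ratios. High-fat diet over chow was above 0 for 7 of 10 members in wild type and for 2 of 10 in LASS2-/-, against 52.4% and 52.1% of all genes. The member medians were 0.43 in wild type and -0.30 in LASS2-/-, against 0.02 and -0.01 for all genes. When a gene's probe sets were averaged, the wild-type median was 0.18. In wild type 0 members were 2-fold higher or lower on high-fat diet, against 2.13% and 1.24% of genes. The first count rests on the floor: with it at the 25th percentile, 2 members, Asns and Psat1, were 2-fold higher.

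Wild type HFD was the highest array for Atf5, Sesn2 and Psat1, 3 of the 10 members, and for 24.1% of all genes. It was also the highest for 3 of 6 lymphocyte and plasma cell markers, whose summed signal was 2683 on wild type chow, 2732 on LASS2-/- chow, 6644 on wild type HFD and 2554 on LASS2-/- HFD. The immunoglobulin gene Ighm was at 12.41 there and between 10.87 and 10.96 on the other arrays, and the plasma cell gene Jchain was at 9.73 there and between 8.28 and 8.47 elsewhere. Other markers of the list did not share this: the T-cell gene Cd3g was highest on wild type chow, at 7.11, and under the floor on wild type HFD, Cd8a was highest on LASS2-/- chow and the B-cell gene Cd79b on LASS2-/- HFD. Cd3e and Cd79a did not enter. The summed signal of 6 stellate cell markers was 13353 and 13633 on the chow arrays of wild type and LASS2-/- and 18298 and 17422 on their high-fat arrays. Dcn, Rgs5, Col1a1 and Col3a1 were higher on high-fat diet in both genotypes, Lrat in wild type alone, and Des was lower in both. The summed signal of 8 hepatocyte markers was 270337 and 290639 on the same chow arrays against 244102 and 236255 on the high-fat arrays. The part of these cells in the members' values was not tested.

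The genes around the members were read from 7 lists. Beside the counts below, 0.56% of all genes rose and 0.352% fell with LASS2-/- in limma, and 6.26% rose and 5.04% fell with diet. At an unadjusted limma p below 0.05, 10.4% of all genes passed for genotype. Of 15 measured eIF2 kinases and regulators of eIF2, 0 passed limma for genotype, with 1 at an unadjusted p below 0.05, and 0 rose and 3 fell with the high-fat diet. Eif2ak3, which encodes the kinase PERK, fell by 0.54 ± 0.14 (adjusted p = 0.0262), Ppp1r15b, the constitutive partner of the eIF2 phosphatase, by 0.43 ± 0.10 (adjusted p = 0.0109), and Dnajc3, an inhibitor of eIF2 kinases, by 0.43 ± 0.09 (adjusted p = 0.00442), each lower in both genotypes. Of 14 bZIP partners and related factors, 0 passed for genotype, with 2 unadjusted, and 2 rose and 1 fell with diet. Cebpd rose by 0.79 ± 0.13 (limma adjusted p = 0.00112), Nfe2l2, the regulator of the antioxidant response, rose by 0.38 ± 0.11 (adjusted p = 0.0416), and Nfil3, a bZIP repressor, fell by 1.25 ± 0.15 (adjusted p = 7.8e-05). Atf3, a bZIP factor downstream of ATF4 that was named after its values were seen, had 7.60, 8.42, 6.94 and 7.96 on wild type chow, LASS2-/- chow, wild type HFD and LASS2-/- HFD. It was higher in LASS2-/- on both diets, and the mean effect of 0.92 log2 did not pass (limma adjusted p = 0.126).

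Of 13 aminoacyl-tRNA synthetases and related genes, 0 passed for genotype, with 3 unadjusted, and 0 rose and 2 fell with diet. These were Tars, by 0.63 ± 0.10 (limma adjusted p = 0.00084), and Eprs, by 0.36 ± 0.10 (adjusted p = 0.0366), which charge tRNA with threonine and with glutamate and proline. Of 13 genes of serine, one-carbon and amino acid synthesis, 0 passed for genotype, with 3 unadjusted. With diet the transaminase Gpt2 rose by 0.49 ± 0.08 (adjusted p = 0.000824) and Got1 fell by 1.01 ± 0.10 (adjusted p = 2.04e-05). Of 8 amino acid transporters, 0 passed for genotype, with 1 unadjusted, and Slc38a2 alone passed for diet, falling by 0.44 ± 0.12 (adjusted p = 0.0366).

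Of 16 other targets of ATF4 and CHOP, 0 passed for genotype, with 1 unadjusted, and 4 rose and 1 fell with diet. Ddit4, an inhibitor of mTORC1, rose by 1.45 ± 0.14 (limma adjusted p = 7.72e-06), Vldlr, a lipoprotein receptor, by 1.52 ± 0.24 (adjusted p = 0.000677), the cell cycle inhibitor Cdkn1a by 1.70 ± 0.16 (adjusted p = 7.16e-06) and the autophagy receptor Sqstm1 by 0.37 ± 0.10 (adjusted p = 0.0247). Each was higher on high-fat diet in both genotypes. The gene that fell was Vegfa, by 0.66 ± 0.16 (adjusted p = 0.014), named after its values were seen. Several of these have other known inducers beside ATF4. Fgf21, the liver hormone that ATF4 and PPAR alpha induce, was named after its values were seen. It read 7.44 on wild type chow and 8.74, 8.78 and 8.52 on LASS2-/- chow, wild type HFD and LASS2-/- HFD. Wild type chow was thus its lowest array, as for 5 members, Atf5, Ddit3, Asns, Sesn2 and Psat1, and for 24.8% of all genes. In Asns this order is poorly measured, since wild type chow and LASS2-/- HFD, at 5.16 and 5.22, were both under the floor. The other probe sets of Ddit3 and Asns were instead lowest on wild type HFD, at 5.37 and 3.75, both under the floor.

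Chaperones and the ATF6 and XBP1 arm gave other counts. Of 22 genes, 0 rose and 14 fell with the high-fat diet, while 6.26% of all genes rose and 5.04% fell. Among the 10 members 1 rose and 0 fell, close to those shares of all genes. The list's median mean diet effect was -0.47 log2, against -0.11 for the members and 0.02 for all genes. Creld2, with ratios of -1.27 in wild type and -1.72 in LASS2-/-, fell (limma adjusted p = 1.51e-06), Sdf2l1 fell by 1.31 ± 0.12 (adjusted p = 7.16e-06), Manf by 1.05 ± 0.09 (adjusted p = 3.08e-06) and Syvn1, a ubiquitin ligase of the endoplasmic reticulum, by 1.01 ± 0.11 (adjusted p = 2.91e-05). Each was lower on high-fat diet in both genotypes. With LASS2-/- 4 of the 22 rose and 0 fell, against 0.56% and 0.352% of all genes. The list's median mean genotype effect was 0.23, against 0.09 for the members. The genes that rose were Creld2, Sdf2l1, Manf and Hyou1, by 0.50 to 0.77, each higher in LASS2-/- on both diets. Their limma adjusted p was 0.0049, 0.0474, 0.0173 and 0.0447, so Sdf2l1 and Hyou1 were just under the threshold. Over all genes, the number rising with LASS2-/- was 70, against 14 with quantile normalization and 11 with equal medians. The members Herpud1 and Ddit3, which the same stress can raise, did not pass for diet. The difference between the lists was not tested.

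**Figure D3:**
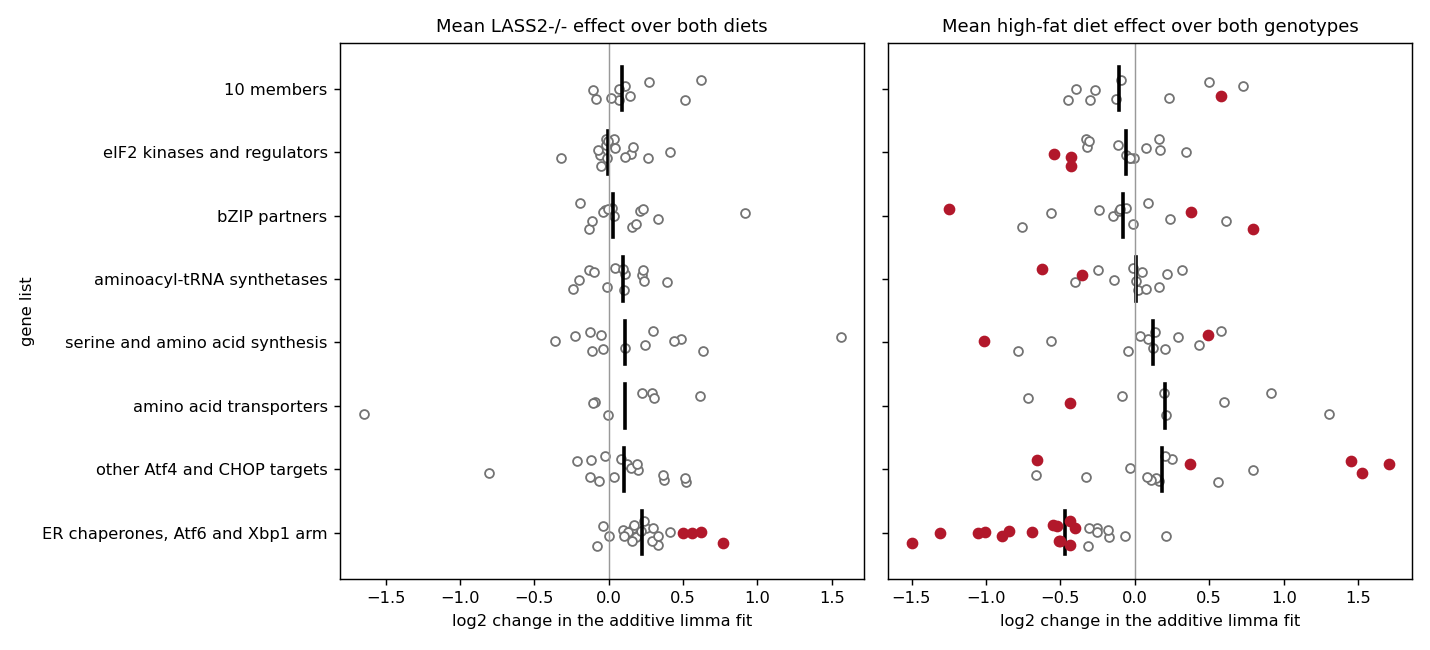
Mean LASS2-/- effect over both diets (left) and mean high-fat diet effect over both genotypes (right), in log2 from the additive limma fit, with 1 point a gene and black bars at the list medians; red points passed an adjusted p below 0.05 over all genes. With diet, 14 of 22 genes of the chaperone list fell, while 1 of the 10 members, Atf5, rose.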

How the data were processed

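The deposited values are log2 signals made by the authors with MAS5, per the submitters' processing notes. Its version and scaling target, and detection calls, were not found in these sources. On the linear scale the mean trimmed by 2% at each tail ran from 496.0 to 496.2 over the 4 arrays, and no scaling was added. Names came from the platform annotation, updated through gene numbers to a RefSeq table of GRCm38.p6: 34945 probe sets had 1 symbol, 932 several and 9160 none. For ratios of 2 arrays, signals under the array median were raised to it, and the ratio is then a bound. A gene was represented by its brightest probe set among those at or above the array median on at least 1 array. The additive fit of genotype and diet (limma 3.58.1, R 4.3.3, trend moderation, Benjamini-Hochberg) covered 12493 genes with 1 residual degree of freedom, beside 12.7 from genes of like signal. The fit was checked on simulated data with independent noise and genotype effects equal on both diets. That check does not bear on the spread between animals or on the calls made here. Python 3.11.15 did the rest. The number of arrays limits the precision.

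The members, the lists and the naming rule were chosen with earlier results of these data known. All members were named. From each list up to 4 genes that passed limma, or were 2-fold apart on both independent ratios, were named, ranked by the smaller ratio, and other names were chosen after their values were seen. Alternatives were quantile normalization, equal medians, no filter, a lower floor (25th percentile), the mean of probe sets, leaving out _x_at and _s_at probe sets, a 1.5-fold threshold, floored values in limma, and limma without trend or with robust moderation. Testing every probe set on its own was added after the data were seen.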

Additional observations from a re-analysis of the deposited data

Results flagged for a closer look

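In 8 members the LASS2-/- array lay above wild type on one diet and below it on the other. The difference of the log2 genotype ratios without a floor, chow minus high-fat diet, was 3.88 for Asns, 1.11 for Psat1, 1.02 for Sesn2, 0.74 for Herpud1, 0.53 for Atf5, 0.42 for Chac1, -0.16 for Ppp1r15a and -0.42 for Trib3. With 1 array a group any gene whose ratios differ in sign is listed, as 44.4% of all genes would be, and the difference was not tested. Asns and Psat1 had 2 and 1 arrays under the floor, and with the floor their differences were 1.89 and 0.82. Second probe sets with all 4 arrays above the floor shared the direction of the difference in Sesn2 (0.78) and Herpud1 (0.64) and had the opposite one in Trib3 (0.78). The second probe sets of Asns and Psat1 were under the floor on both high-fat arrays and give no such difference.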

How the results depend on the processing

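The counts for genotype over all genes depended on the normalization, the filter, the choice of probe sets and the moderation in limma. Genes that rose with LASS2-/- numbered 70, against 14 with quantile normalization, 11 with equal medians, 33 with no filter, 36 with the mean of probe sets, 41 with robust moderation and 0 without trend. Those that fell numbered 44, against 9, 11, 19 and 27 with the first 4 of these and 0 without trend. For diet, 782 rose and 630 fell, against 0 and 0 without trend and 358 falling with equal medians. Without trend, 820 genes for genotype and 1783 for diet had an unadjusted p below 0.05. Members past limma for genotype stayed at 0 under every alternative. Members past limma for diet numbered 1, against 0 without trend and 2 with the mean of probe sets or with each probe set on its own, the second being Atf4. The member median of high-fat diet over chow in wild type was 0.43, and 0.18 with the mean of probe sets. Of the other values of single members and of the 2-fold counts, 227 kept their side of the threshold or stayed within 1.5 times of the count, 6 became larger or newly passed and 3 became smaller or no longer passed. Most of the 227 were effects that passed under neither setting or counts that stayed at 0, so the number says little about stability. With the floor at the 25th percentile, 2 members in place of 0 were 2-fold higher on high-fat diet in wild type. With that floor, 1 member in place of 0 was 2-fold lower in LASS2-/- than in wild type on high-fat diet. With equal medians Trib3 was 2-fold higher on high-fat diet in LASS2-/-. Equal medians moved the median chow genotype ratio of all genes from 0.03 to -0.07. The causes were not tested. No paired analysis was possible because each group has 1 array and the labels carry no replicate numbers. Leaving out an array would leave no residual degree of freedom. Asns and Psat1 lie near the array medians, where ratios are least precise.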
